A study of Mus musculus with 46 samples.

Results

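Glucuronidation and sulfation are the conjugation reactions by which liver makes bilirubin, steroids, bile acids, thyroid hormone, catecholamines, phenols and drugs more soluble in water and ready for export. The UDP-glucuronosyltransferases (UGTs) are membrane enzymes of the endoplasmic reticulum that transfer a sugar, usually glucuronic acid from UDP-glucuronic acid, whereas the cytosolic sulfotransferases (SULTs) transfer sulfate from the donor PAPS. In rodent liver both classes are controlled by nuclear receptors that sense foreign chemicals and bile acids, and several members differ between males and females. The expression of these 2 classes was described across the livers of mice fed with rapamycin, with restricted food, with both or with neither. All probes whose platform gene symbol begins with Ugt1, Ugt2 or Ugt3, or with Sult and a digit, were taken. The rule found 37 probes of 27 genes, 20 probes of 15 UGT genes and 17 probes of 12 SULT genes, out of 16593 gene symbols on the array.

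The livers came from 46 male C57BL6/J mice, and the RNA of each was read on its own Illumina Mouse Ref8 v2.0 array. All mice were 8 months old and had been on their diet for 6 months, from 2 months of age. The 12 Rapa+DR mice received 14 ppm rapamycin, an inhibitor of mTOR, in a diet restricted by 40%, the 11 DR mice the restricted diet alone and the 12 Rapa mice 14 ppm rapamycin in food given freely. The restriction is given as in the labels, and since the methods word it in more than 1 way, the amount of food is not certain. The 11 AL mice, the controls, ate ad libitum without rapamycin. Since whole liver was used, fewer cells of a type and less RNA per cell cannot be told apart.

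Levels are given on a log2 signal scale on which all arrays have 1 common mean and spread. A difference of 1 is a 2.00-fold change on this scale. It is only near a 2.00-fold change of scanner signal, since the SD of the log2 signals ran from 1.10 to 1.58 over the arrays. A level may be set against the same probe in other mice but not against another probe. Of the 37 probes, 22 probes of 17 genes passed background on at least 1 array and were tested, and 15 probes passed it on every array. The 15 probes left out include all probes of Ugt2a1, Ugt2a2, Ugt2b5, Ugt2b37, Ugt2b38, Sult1c1, Sult1e1, Sult2a6, Sult3a1 and Sult4a1. The rest of the 15 are dimmer probes of Ugt1a2, Ugt2a3, Sult1b1 and Sult2b1. A gene is represented by its brightest probe, called probe 1 where there are several. A probe was called when the Benjamini-Hochberg adjusted p of limma over the 14881 probes tested was under 0.05 and the group medians differed by over 15%. The comparisons with AL share the same AL mice, so they are not independent of each other.

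Of 7 hepatocyte markers with a probe 6 were tested and Tat was at background on every array. The median level per mouse (mean over the list) was 11.34 in Rapa+DR, 11.38 in DR, 11.44 in Rapa and 11.61 in AL mice. Against AL, 1 of the 6 was higher and 2 lower in Rapa+DR, 1 and 1 in DR, and 0 and 1 in Rapa mice. Of all probes 17.3%, 10.7% and 8.44% were called higher and 9.71%, 6.32% and 5.72% lower. Of the macrophage markers, 4 of 7 tested were lower in Rapa+DR, 2 in DR and 4 in Rapa when compared with AL (9.71%, 6.32% and 5.72% of all probes were called lower in the same comparisons), and their mean level lay between 7.20 and 8.00 in Rapa+DR, 7.14 and 8.00 in DR, 7.41 and 8.02 in Rapa and 7.76 and 8.32 in AL mice. The median change of the 7 stellate and fibroblast markers was −0.06 in Rapa+DR, −0.04 in DR and −0.02 in Rapa mice against AL. Of 4 bile duct markers with a probe 3 were tested, and none of these was called against AL. Of the 3, 1 was lower in Rapa+DR and 1 in DR mice than in Rapa mice (5.83% and 4.29% of all probes). Krt19, the other bile duct marker, and Cd5l, a macrophage marker, were at background on every array. Against AL, 1 of 7 endothelial markers was higher and 1 lower in Rapa+DR, 1 and 0 in DR, and 0 and 2 in Rapa mice. The shares of all probes are those given above. Compared with Rapa mice, 2 endothelial markers were higher in Rapa+DR (11.3% of all probes) and 2 in DR mice (6.62%). None of the 4 lymphocyte markers tested was called in these comparisons. The part of these cells in the values below was not tested. One AL mouse, replicate 3, stood apart from the other AL mice. It had the lowest array weight of the 46 (0.37, median 1.07) and the highest AL level of Ugt1a10 (13.32), Ugt1a2 (7.95), Ugt1a6a probe 2 (9.34) and Ugt1a6a probe 3 (8.38). AL replicate 6 had the lowest AL level of most UGT probes. Results that depend on replicate 3 are given with and without it.

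The promoters of the 4 genes called higher than in AL on all 3 diets, Sult1d1, Sult2a8, Ugt1a10 and Ugt2b35, are shown. That of Sult5a1, the only tested member called lower than in AL, is shown too. The genes were chosen by their calls, and no motif was tested against a change of level. In the RefSeq annotation Ugt1a10, Ugt1a6a and Ugt1a2 lie in 1 locus of chromosome 1 and end at the same base, with different starts, so that their transcripts share their last exons. Where the probes lie within the locus was not given in the sources used here. On chromosome 5, 10 UGT2 genes are followed by Sult1b1, Sult1d1 and Sult1e1. Of the 27 genes, 25 matched a promoter in RefSeq (GRCm38.p6), from 250 bases before to 50 bases after the start. Of 7 motifs searched on both strands, matches are in capitals, and none of them overlap in the sequences below. Sult2a8 has more than 1 start in RefSeq, and both promoters are shown.

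Sult1d1, chr5:87568957-87569256, minus strand: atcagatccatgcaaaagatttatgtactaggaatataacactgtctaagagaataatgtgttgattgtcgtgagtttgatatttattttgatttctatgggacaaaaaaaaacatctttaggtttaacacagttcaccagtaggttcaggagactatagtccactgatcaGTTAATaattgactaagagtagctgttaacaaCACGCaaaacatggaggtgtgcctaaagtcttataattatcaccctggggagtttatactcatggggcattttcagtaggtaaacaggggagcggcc
Sult2a8, first start, chr7:14446538-14446837, minus strand: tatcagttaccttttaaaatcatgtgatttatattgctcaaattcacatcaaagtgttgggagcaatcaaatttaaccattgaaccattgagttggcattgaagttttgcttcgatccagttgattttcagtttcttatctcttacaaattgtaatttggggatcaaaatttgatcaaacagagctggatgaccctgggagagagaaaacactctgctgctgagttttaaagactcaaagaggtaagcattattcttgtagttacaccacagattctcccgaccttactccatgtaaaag
Sult2a8, second start, chr7:14438502-14438801, minus strand: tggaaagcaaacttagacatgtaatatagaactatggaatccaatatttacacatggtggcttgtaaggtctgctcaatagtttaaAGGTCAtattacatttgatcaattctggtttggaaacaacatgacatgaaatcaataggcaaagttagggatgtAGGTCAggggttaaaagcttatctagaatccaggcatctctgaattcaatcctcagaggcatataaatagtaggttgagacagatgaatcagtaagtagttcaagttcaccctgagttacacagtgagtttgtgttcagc
Ugt1a10, chr1:88055161-88055460, plus strand: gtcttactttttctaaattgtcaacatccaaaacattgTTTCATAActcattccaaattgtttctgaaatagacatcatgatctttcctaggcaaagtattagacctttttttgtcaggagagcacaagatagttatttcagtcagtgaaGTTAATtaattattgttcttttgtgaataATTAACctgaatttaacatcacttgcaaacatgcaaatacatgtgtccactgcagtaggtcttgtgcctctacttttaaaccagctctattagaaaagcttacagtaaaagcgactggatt
Ugt2b35, chr5:87000610-87000909, plus strand: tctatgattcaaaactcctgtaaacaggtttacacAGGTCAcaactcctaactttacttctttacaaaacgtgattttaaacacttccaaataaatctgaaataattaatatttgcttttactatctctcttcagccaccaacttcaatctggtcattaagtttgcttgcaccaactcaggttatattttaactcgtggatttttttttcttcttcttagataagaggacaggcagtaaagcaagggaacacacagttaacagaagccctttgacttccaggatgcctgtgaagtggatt
Sult5a1, chr8:123158231-123158530, minus strand: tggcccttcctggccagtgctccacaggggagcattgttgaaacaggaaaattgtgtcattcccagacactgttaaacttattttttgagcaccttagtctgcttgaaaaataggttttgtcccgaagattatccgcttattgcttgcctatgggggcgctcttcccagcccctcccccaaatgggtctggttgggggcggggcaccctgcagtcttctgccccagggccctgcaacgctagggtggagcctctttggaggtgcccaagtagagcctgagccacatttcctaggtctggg

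The motif GTTAAT, the half-site of the hepatocyte factor HNF1, was found in 6 of 19 promoter entries of the tested genes and in 7.10% of all 32851 mouse promoters in the table. These 6 are the promoters of Sult1d1, Sult1a1, Ugt1a10, Ugt1a6a, Ugt2a3 and Ugt3a1, with a pair of matches each in Ugt1a10 and Ugt2a3. AGGTCA, the nuclear receptor half-site, was in 4 of the 19 entries, those of Ugt2b35 and the second start of Sult2a8 among them, and in 16.3% of all promoters. The other capitals are GCGTG, the core bound by the aryl hydrocarbon receptor, in Sult1d1 (32.4% of all promoters) and TTATGNAA, the D-box of clock output factors, in Ugt1a10 (3.38%). TTCNNNGAA, the STAT site (8.30%), was in 1 of the 19 entries, and neither TGACNNNGC, the antioxidant response element (12.4%), nor CACGTG, the E-box (7.15%), had a match in them. No match to any of the 7 was found in the Sult5a1 sequence or at the first start of Sult2a8.

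When compared with AL, more of the tested probes were up-regulated than down-regulated by each diet. In Rapa+DR mice 12 of 22 probes were higher and 2 lower, beside 27.0% of all 14881 probes called, 17.3% higher and 9.71% lower. In DR mice 9 probes were higher and 2 lower, beside 17.0% of all probes called, 10.7% higher and 6.32% lower. In Rapa mice 7 probes were higher and 0 lower by limma, with 11 of 22 at an unadjusted p under 0.05, beside 14.2% of all probes called, 8.44% higher and 5.72% lower. Because brighter probes are called more often, the 13 genes that passed background on every array are given too. Of these 9 were called in Rapa+DR, 8 in DR and 5 in Rapa mice against AL, while 45.4%, 31.1% and 26.1% of all 6590 probes above background on every array were called in the same 3 comparisons. The lower probes in DR and Rapa+DR mice were both of Sult5a1. Without AL replicate 3 the probes called were 14 in Rapa+DR, 13 in DR and 11 in Rapa mice.

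**Figure D1:**
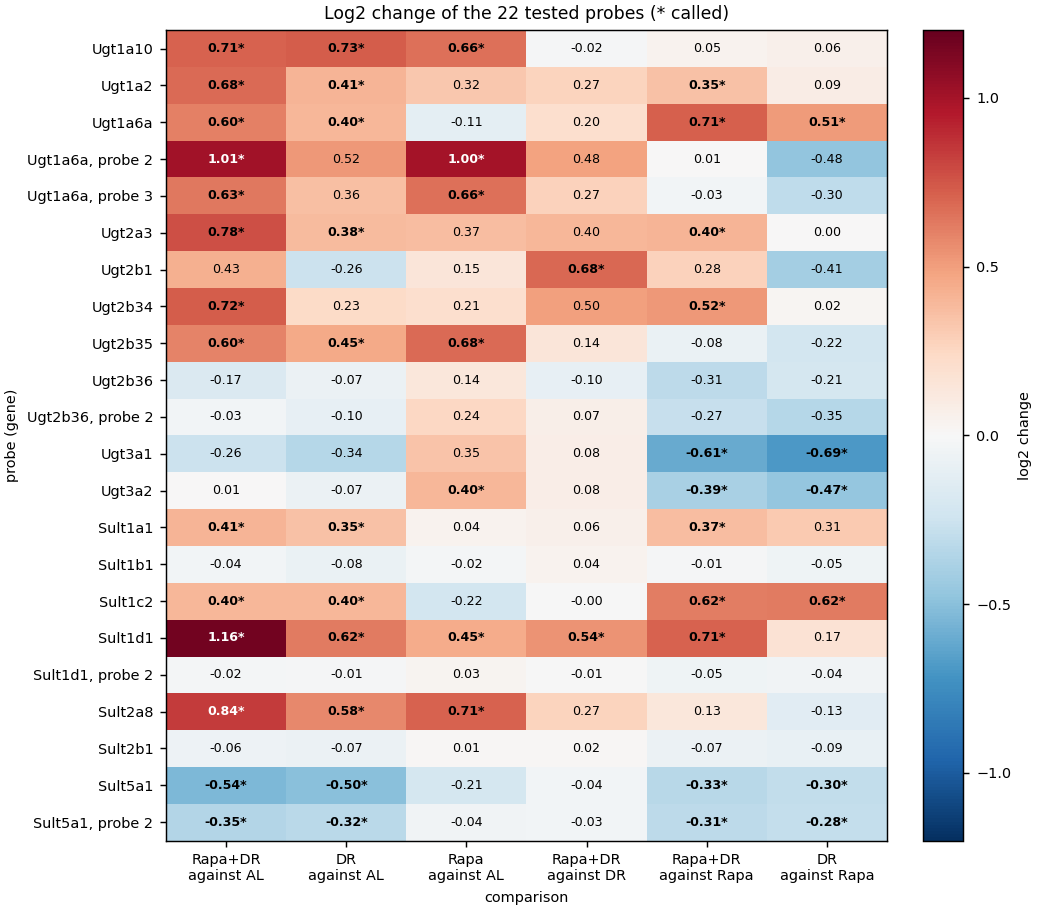
Log2 change of the 22 tested probes (rows, UGT above SULT) in 6 comparisons (columns), the first-named group minus the second, with the value in each cell and an asterisk where it was called. Red is higher in the first-named group, and the cells of Sult1d1 run up to 1.16 in Rapa+DR against AL while both Sult5a1 probes are blue wherever restricted mice are compared with mice fed freely.

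Sult1d1 showed the largest change of any member. This sulfotransferase acts on catecholamines such as dopamine in the mouse. Its lowest, median and highest levels were 8.77, 9.39 and 9.86 in Rapa+DR mice, 8.34, 8.88 and 9.07 in DR mice, 8.15, 8.64 and 9.08 in Rapa mice and 7.62, 8.07 and 8.85 in AL mice. Of the 12 Rapa+DR mice, 10 were above the highest AL mouse, and 6 of 11 DR mice and 4 of 12 Rapa mice were as well. When compared with AL, Sult1d1 was 2.23-fold higher in Rapa+DR mice (log2 change 1.16 ± 0.13, SE, limma adjusted p = 1.73e-09), 1.54-fold higher in DR mice (0.62 ± 0.13, adjusted p = 0.000442) and 1.36-fold higher in Rapa mice (0.45 ± 0.13, adjusted p = 0.0114). It was also higher in Rapa+DR than in DR mice (0.54 ± 0.13, adjusted p = 0.0131) and than in Rapa mice (0.71 ± 0.13, adjusted p = 3.03e-05), while DR and Rapa mice did not differ beyond their spread (0.17 ± 0.13, adjusted p = 0.422). The change in Rapa+DR mice was close to the sum of the single changes (interaction 0.09 ± 0.18, limma adjusted p = 0.843). The probes of Sult1d1 disagreed, since a second, dim probe, above background on 9 of 46 arrays, was called in no comparison (−0.02 ± 0.04 in Rapa+DR against AL).

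Sult2a8, a hydroxysteroid sulfotransferase of mouse liver that sulfates bile acids, rose with each diet. Its lowest, median and highest levels were 10.64, 10.92 and 11.33 in Rapa+DR mice, 9.98, 10.59 and 11.75 in DR mice, 10.23, 10.89 and 11.15 in Rapa mice and 9.11, 10.25 and 10.85 in AL mice. AL mice were the most widely spread downwards, and the ranges of all groups overlapped. The change against AL was 0.84 ± 0.16 in Rapa+DR (adjusted p = 6.03e-05), 0.58 ± 0.17 in DR (adjusted p = 0.0099) and 0.71 ± 0.16 in Rapa mice (adjusted p = 0.00176). None of the comparisons among the treated groups was called for this gene.

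Sult1a1 and Sult1c2 were called higher than in AL on the restricted diets. Sult1a1, a phenol sulfotransferase, had lowest, median and highest levels of 11.59, 12.28 and 12.75 in Rapa+DR mice, 11.84, 12.20 and 12.49 in DR mice, 11.56, 11.79 and 12.40 in Rapa mice and 11.13, 11.77 and 12.32 in AL mice. The medians of both restricted groups lay above those of Rapa and AL mice, with overlapping ranges. Its change against AL was 0.41 ± 0.13 in Rapa+DR (adjusted p = 0.00764) and 0.35 ± 0.13 in DR (adjusted p = 0.0425), against 0.04 ± 0.13 in Rapa mice (adjusted p = 0.884). The call in DR mice held in 33 of 46 fits that each left out 1 array, with changes between 0.29 and 0.35 in the 13 others (lowest without AL replicate 5, adjusted p = 0.102). Rapa+DR mice also exceeded Rapa mice, by 0.37 ± 0.12 (adjusted p = 0.0188).

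Sult1c2, another SULT1 enzyme, was highest in both restricted groups. Its lowest, median and highest levels were 6.85, 7.40 and 8.17 in Rapa+DR mice, 7.10, 7.43 and 7.84 in DR mice, 6.53, 6.90 and 7.15 in Rapa mice and 6.75, 7.08 and 7.63 in AL mice. Of 11 DR mice, 10 were above the highest Rapa mouse, and 10 of 12 Rapa+DR mice were too. The change was 0.40 ± 0.11 both in Rapa+DR against AL (adjusted p = 0.00299) and in DR against AL (adjusted p = 0.00627), and 0.62 ± 0.11 both in Rapa+DR against Rapa (adjusted p = 1.72e-05) and in DR against Rapa (adjusted p = 3.62e-05). Rapa mice had a lower mean than AL mice by a log2 change of −0.22 ± 0.11 (adjusted p = 0.17), which was called after quantile normalization (−0.26). The probe was above background on 9 of 12 Rapa arrays and on every array of the other groups.

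Sult5a1 was the only SULT gene lower under restriction among those tested, and both of its probes showed it. Probe 1 had lowest, median and highest levels of 6.62, 6.93 and 7.28 in Rapa+DR mice, 6.78, 7.03 and 7.37 in DR mice, 6.95, 7.26 and 7.94 in Rapa mice and 7.01, 7.49 and 7.88 in AL mice. Of the 12 Rapa+DR mice, 8 were below the lowest AL mouse, and 5 of 11 DR mice were. The change against AL was −0.54 ± 0.09 in Rapa+DR (adjusted p = 5.21e-06) and −0.50 ± 0.09 in DR (adjusted p = 5.62e-05). In Rapa mice it was −0.21 ± 0.09 (adjusted p = 0.108), and −0.26 with adjusted p = 0.0291 when AL replicate 3, the lowest AL mouse, was left out. Probe 2, above background on 36 arrays, changed by −0.35 ± 0.07 in Rapa+DR and −0.32 ± 0.07 in DR mice against AL. Against Rapa mice probe 1 was lower in Rapa+DR (−0.33 ± 0.09, adjusted p = 0.00362) and in DR mice (−0.30 ± 0.09, adjusted p = 0.0184).

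**Figure D2:**
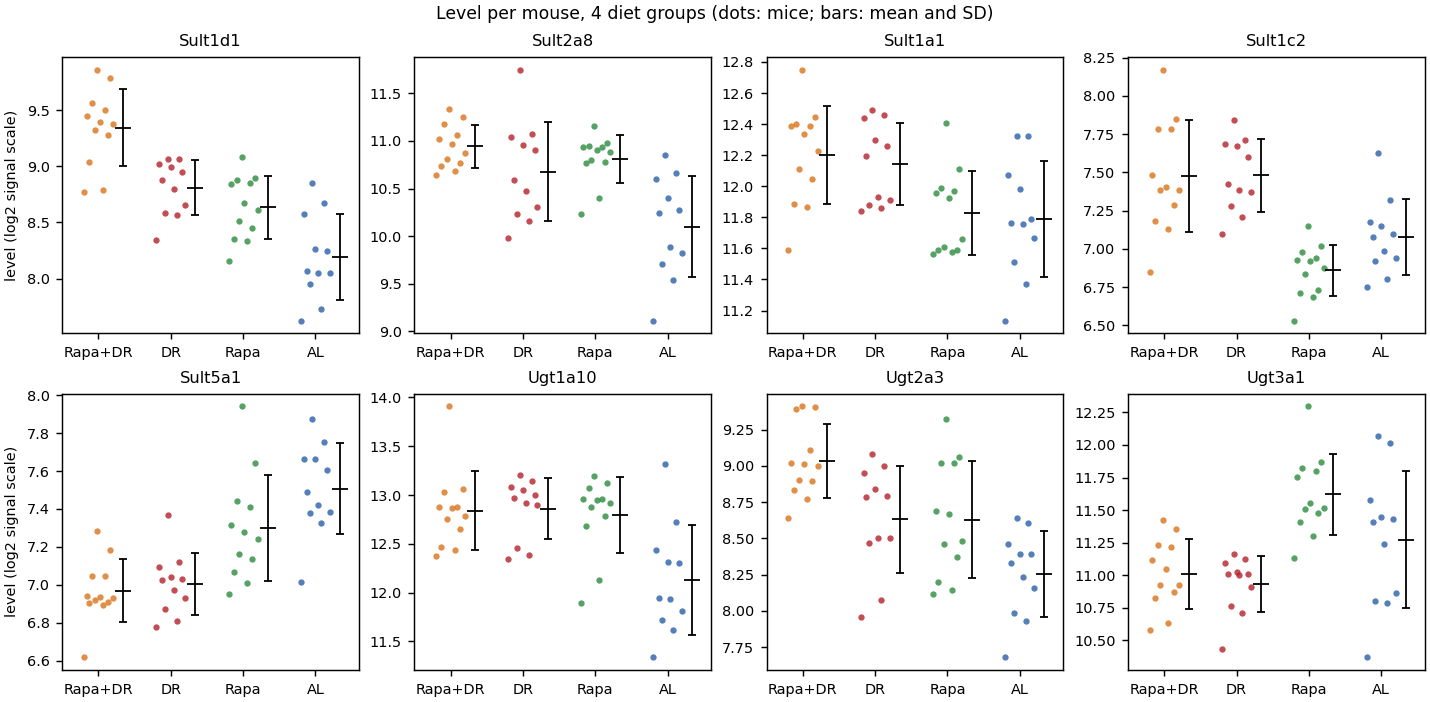
Level on the log2 signal scale (y axis) of 8 genes in each mouse (dots), by diet group from Rapa+DR to AL (x axis), with the mean and SD of the group. Sult1d1 steps down from Rapa+DR to AL, and AL replicate 3 is the highest AL dot of Ugt1a10 at 13.32. The means of Sult1c2 are higher and those of Sult5a1 lower in restricted than in freely fed mice, with overlapping ranges.

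The remaining SULT genes tested were at or near background. Sult1b1, which sulfates thyroid hormone, passed background on 1 array only, and Sult2b1, which sulfates cholesterol, on 4 arrays and on none of the Rapa+DR or DR mice. Their levels lay between 6.20 and 6.66 and between 6.28 and 6.63 in all groups, and neither was called in any comparison.

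Among the UGT1 enzymes, the Ugt1a10 probe was higher than in AL mice on all 3 diets. It was not known whether this probe reads the exons that Ugt1a10 shares with Ugt1a6a and Ugt1a2. Its lowest, median and highest levels were 12.37, 12.83 and 13.91 in Rapa+DR mice, 12.35, 12.97 and 13.21 in DR mice, 11.90, 12.93 and 13.20 in Rapa mice and 11.34, 11.95 and 13.32 in AL mice. The treated groups had almost the same median, and all ranges overlapped with that of AL. The change against AL was 0.71 ± 0.17 in Rapa+DR (adjusted p = 0.00104), 0.73 ± 0.18 in DR (adjusted p = 0.00209) and 0.66 ± 0.17 in Rapa mice (adjusted p = 0.00522). Thus the change in Rapa+DR mice was smaller than the sum of the single changes, with an interaction of −0.68 ± 0.25 that was not called (limma adjusted p = 0.113). Without AL replicate 3 the interaction was −0.80 and was called (adjusted p = 0.0299).

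Ugt1a2 was close to background in AL mice and above it in most treated mice. The probe passed background on 12 of 12 Rapa+DR, 10 of 11 DR, 10 of 12 Rapa and 3 of 11 AL arrays. Its lowest, median and highest levels were 6.91, 7.32 and 7.78 in Rapa+DR mice, 6.49, 7.09 and 7.36 in DR mice, 6.45, 6.97 and 7.53 in Rapa mice and 6.34, 6.46 and 7.95 in AL mice. The highest mouse of all was AL replicate 3, so that the ranges overlapped. The change against AL was 0.68 ± 0.13 in Rapa+DR (adjusted p = 4.84e-05) and 0.41 ± 0.13 in DR mice (adjusted p = 0.0209). In Rapa mice the change was 0.32 ± 0.13 (adjusted p = 0.0778), and 0.46 with adjusted p = 0.000833 without AL replicate 3. Another probe of Ugt1a2 was above background on no array and was not tested.

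The 3 probes of Ugt1a6a, an enzyme that glucuronidates planar phenols and paracetamol, disagreed. Probe 1 had lowest, median and highest levels of 9.14, 9.64 and 10.25 in Rapa+DR mice, 8.95, 9.54 and 9.83 in DR mice, 8.40, 8.97 and 9.43 in Rapa mice and 8.74, 9.00 and 9.43 in AL mice, so that 11 of 12 Rapa+DR and 7 of 11 DR mice were above both the highest Rapa and the highest AL mouse. Probe 2 had levels of 7.55, 8.51 and 9.58 in Rapa+DR mice, 7.18, 8.25 and 8.85 in DR mice, 7.65, 8.47 and 9.59 in Rapa mice and 6.88, 7.40 and 9.34 in AL mice, and was high in Rapa mice as well. Probe 1 was called on the restricted diets, with a change against AL of 0.60 ± 0.11 in Rapa+DR (adjusted p = 4.7e-05), 0.40 ± 0.12 in DR (adjusted p = 0.0105) and −0.11 ± 0.11 in Rapa mice (adjusted p = 0.563). In contrast, probe 2 changed by 1.01 ± 0.27 in Rapa+DR (adjusted p = 0.00225), 0.52 ± 0.27 in DR (adjusted p = 0.176) and 1.00 ± 0.27 in Rapa mice (adjusted p = 0.00591). Probe 3, above background on 40 arrays, had levels of 6.89, 7.52 and 8.18 in Rapa+DR mice, 6.57, 7.32 and 7.72 in DR mice, 6.85, 7.57 and 8.31 in Rapa mice and 6.47, 6.61 and 8.38 in AL mice. Like probe 2 it was called in Rapa+DR and Rapa mice, with 0.63 ± 0.19 in Rapa+DR, 0.36 ± 0.19 in DR and 0.66 ± 0.19 in Rapa mice. Without AL replicate 3, probes 2 and 3 were called in DR mice too (0.70 and 0.51).

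The probes also split when mice of the same group were compared. After the mean of its group was subtracted from each mouse, probes 2 and 3 of Ugt1a6a were correlated over the 46 mice (Pearson r = 0.97, Spearman rho = 0.97, both permutation p = 1e-05, the smallest that 100000 permutations can give, adjusted p = 0.000133 over 253 relations, and r = 0.96 without the 2 mice farthest from the median). The relation of probe 1 to probe 2 did not pass the threshold (r = −0.27, permutation p = 0.0817, rho = −0.21, permutation p = 0.182, adjusted p = 0.161 for r, and r = −0.23 without 2 mice), and a direct test of the difference between the correlations was not made. Probes 2 and 3 varied together with the other genes of the locus, with r = 0.69 and 0.76 for Ugt1a10 and r = 0.70 and 0.73 for Ugt1a2 (permutation p between 1e-05 and 2e-05, rho between 0.66 and 0.73, adjusted p at most 0.000202, and r between 0.61 and 0.70 without 2 mice).

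**Figure D3:**
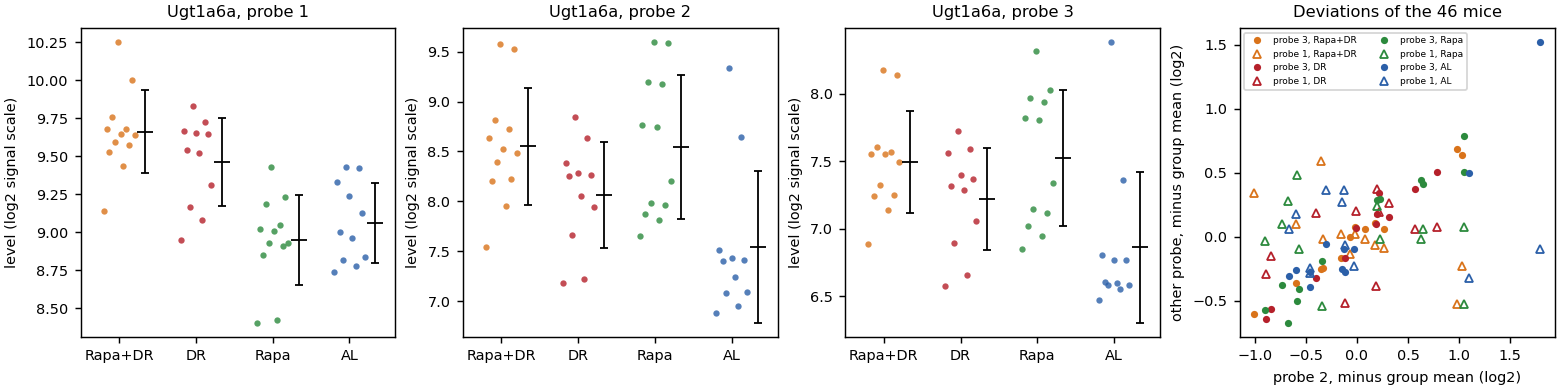
Level of the 3 probes of Ugt1a6a in each mouse (dots, with mean and SD, left panels) and, at right, the deviation of probe 3 (filled) and probe 1 (open) from the group mean against that of probe 2. The filled points lie along a line (r = 0.97) and the open ones do not (r = −0.27).

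Of the 5 UGT2 genes tested, which encode enzymes that glucuronidate steroids and bile acids, Ugt2a3, Ugt2b34 and Ugt2b35 were called higher in Rapa+DR than in AL mice. Ugt2a3, which acts on bile acids in human, had lowest, median and highest levels of 8.64, 9.01 and 9.41 in Rapa+DR mice, 7.96, 8.79 and 9.08 in DR mice, 8.11, 8.57 and 9.32 in Rapa mice and 7.68, 8.33 and 8.64 in AL mice. Of 12 Rapa+DR mice, 11 were above the highest AL mouse. The change against AL was 0.78 ± 0.14 in Rapa+DR (adjusted p = 1.28e-05) and 0.38 ± 0.14 in DR mice (adjusted p = 0.0466), the last being called in 31 of 46 fits that left out 1 array, with changes between 0.32 and 0.39 in the 15 others (lowest without AL replicate 6, adjusted p = 0.106). In Rapa mice it was 0.37 ± 0.14 (adjusted p = 0.0503), and called without AL replicate 3 (0.41, adjusted p = 0.0286). Another probe of Ugt2a3 was above background on no array and was not tested.

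Ugt2b34 had lowest, median and highest levels of 8.24, 8.64 and 9.12 in Rapa+DR mice, 7.47, 8.10 and 8.80 in DR mice, 7.66, 8.01 and 8.89 in Rapa mice and 7.48, 7.81 and 8.72 in AL mice. It was called only where Rapa+DR mice were compared with AL (0.72 ± 0.15, adjusted p = 0.000125) or with Rapa mice (0.52 ± 0.15, adjusted p = 0.00611), against 0.23 ± 0.15 in DR and 0.21 ± 0.15 in Rapa mice relative to AL. Its interaction was not called (0.29 ± 0.21, limma adjusted p = 0.485). Ugt2b1 had levels of 9.65, 10.24 and 10.68 in Rapa+DR mice, 8.71, 9.34 and 10.23 in DR mice, 9.03, 9.82 and 10.80 in Rapa mice and 9.10, 9.61 and 10.47 in AL mice. It was higher in Rapa+DR than in DR mice (0.68 ± 0.18, adjusted p = 0.0243), and neither Rapa+DR (0.43 ± 0.18, adjusted p = 0.0564) nor DR (−0.26 ± 0.19, adjusted p = 0.362) was called against AL. The call against DR mice was lost without DR replicate 7 (0.63), 9 (0.63), 10 (0.65) or 11 (0.61), with adjusted p between 0.0501 and 0.0705. The change against AL in Rapa+DR mice was called in 7 of 11 alternatives, which ranged between 0.20 and 0.74. These neighbouring genes varied together within groups (r = 0.85, rho = 0.84, both permutation p = 1e-05, adjusted p = 0.000133, and r = 0.83 without 2 mice). Both genes also rose within groups with the SD of the log2 signals of the array. The r was 0.47 for Ugt2b1 and 0.48 for Ugt2b34 (each permutation p = 0.00136, adjusted p = 0.00637). The part of the array SD in the relation of the 2 genes was not tested.

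Ugt2b35 was higher on each diet. Its lowest, median and highest levels were 8.67, 9.09 and 9.64 in Rapa+DR mice, 8.27, 9.02 and 9.47 in DR mice, 8.63, 9.19 and 9.63 in Rapa mice and 7.85, 8.41 and 9.26 in AL mice. All 12 Rapa+DR, 10 of 11 DR and all 12 Rapa mice were above the AL median, with changes of 0.60 ± 0.14 (adjusted p = 0.00064) in Rapa+DR, 0.45 ± 0.14 (adjusted p = 0.0178) in DR and 0.68 ± 0.14 (adjusted p = 0.000538) in Rapa mice. Within groups Ugt2b35 varied with Sult2a8 (r = 0.71, rho = 0.64, both permutation p = 1e-05, adjusted p = 0.000133, and r = 0.65 without 2 mice). Neither probe of Ugt2b36 was called in any comparison, with levels between 12.83 and 14.36 for probe 1 and between 12.25 and 13.90 for probe 2.

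The UGT3 genes, whose human counterparts use UDP-sugars other than UDP-glucuronic acid, were lower in both restricted groups than in Rapa mice, under the scaling used here. Ugt3a1 had lowest, median and highest levels of 10.58, 10.99 and 11.42 in Rapa+DR mice, 10.43, 11.01 and 11.16 in DR mice, 11.13, 11.54 and 12.30 in Rapa mice and 10.37, 11.41 and 12.07 in AL mice. Of 11 DR mice, 10 were below the lowest Rapa mouse, and 8 of 12 Rapa+DR mice were. Ugt3a1 was lower in DR than in Rapa mice (−0.69 ± 0.14, adjusted p = 0.000381) and in Rapa+DR than in Rapa mice (−0.61 ± 0.14, adjusted p = 0.000814), whereas against AL the changes of −0.26 ± 0.14 in Rapa+DR, −0.34 ± 0.14 in DR and 0.35 ± 0.14 in Rapa mice were not called. Without AL replicate 3 the change in Rapa mice was 0.42 and was called (adjusted p = 0.0237).

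Ugt3a2, its neighbour, had lowest, median and highest levels of 12.18, 12.56 and 13.56 in Rapa+DR mice, 12.24, 12.56 and 12.82 in DR mice, 12.29, 13.08 and 13.42 in Rapa mice and 11.98, 12.57 and 13.54 in AL mice. It was higher in Rapa than in AL mice by 0.40 ± 0.14 (adjusted p = 0.0493), a call held in 10 of 46 fits that left out 1 array, with changes between 0.33 and 0.40 in the 36 others. It was lower than in Rapa mice by −0.47 ± 0.14 in DR (adjusted p = 0.0209) and by −0.39 ± 0.14 in Rapa+DR mice (adjusted p = 0.0343), a call held in 39 of 46 such fits. With the array SD as a covariate, an alternative added after seeing the data, neither was called (−0.24 in DR and −0.08 in Rapa+DR mice), and when arrays were centred and not divided by their SD the changes were −0.01 in DR and 0.19 in Rapa+DR mice, not called, so that the direction in Rapa+DR mice turned.

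Several of these values moved with the spread of the array. In the scaling each signal was divided by the SD of its own array, so level and SD are coupled by calculation. The permutation p values below do not separate this coupling from other variation. The SD of the log2 signals of an array averaged 1.41 ± 0.12 in Rapa+DR, 1.38 ± 0.09 in DR, 1.28 ± 0.13 in Rapa and 1.28 ± 0.12 in AL mice (SD over mice). Within groups it was correlated over the 46 mice with Ugt2b36 probe 1 (r = −0.89, rho = −0.90), Ugt1a10 (r = −0.76, rho = −0.71) and Ugt3a2 (r = −0.75, rho = −0.70), each with permutation p = 1e-05 and adjusted p = 0.000133, and r was −0.85, −0.67 and −0.66 without the 2 mice of most extreme spread. The relation was positive for Ugt1a6a probe 1 (r = 0.64, permutation p = 2e-05, rho = 0.56, permutation p = 0.00012, adjusted p = 0.000202, and r = 0.56 without 2 mice). The part of the array SD in the relations between probes given above was not tested. With the array SD as a covariate, Ugt2b34 in Rapa+DR against Rapa mice (0.32) and Ugt2a3 in DR against AL (0.24) were no longer called either. When arrays were centred and not divided by their SD, both Ugt3a1 changes against Rapa mice lost their call (−0.18 in Rapa+DR and −0.35 in DR mice), as did Sult1d1 in Rapa against AL (0.44, adjusted p = 0.0764). In that setting Ugt2b36 probe 1 was called higher in Rapa+DR (0.43) and DR mice (0.39) than in AL mice, against −0.17 and −0.07 otherwise.

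**Figure D4:**
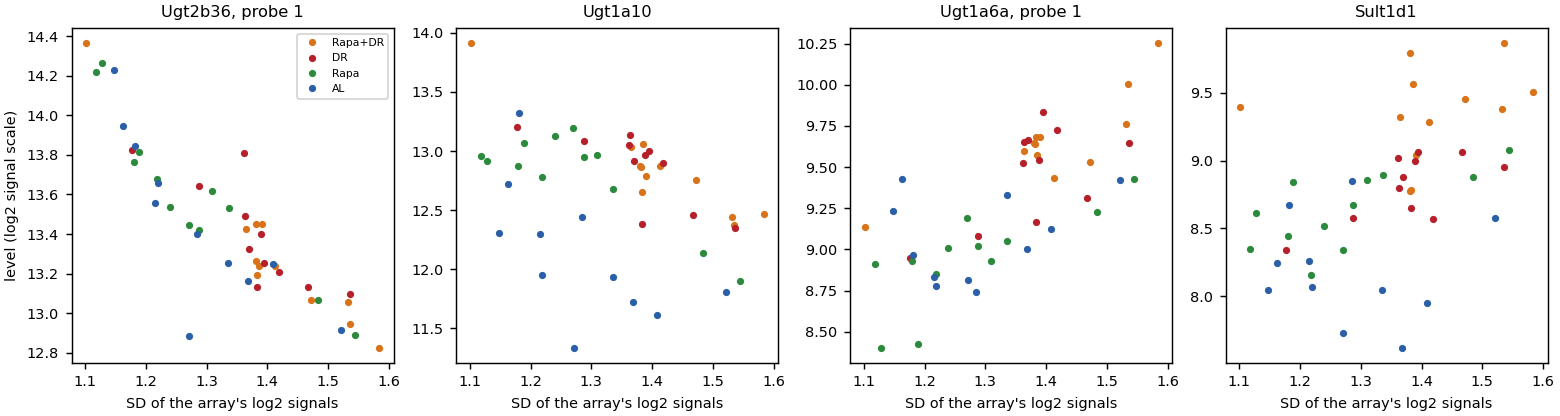
Level of 4 probes (y axis, log2 signal scale) against the SD of the log2 signals of the same array (x axis), 1 dot per mouse, coloured by diet group. Ugt2b36 and Ugt1a10 fall with the array SD (within groups r = −0.89 and −0.76) and Ugt1a6a probe 1 climbs (r = 0.64), while Sult1d1 has an r of 0.33 (rho = 0.34, permutation p = 0.0318, adjusted p = 0.0797 for r).

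The 2 classes were set side by side with no test. Over the 10 UGT genes tested the median change against AL was 0.60 in Rapa+DR, 0.30 in DR and 0.34 in Rapa mice, and over the 7 SULT genes it was 0.40, 0.35 and 0.01, while the median over all 14881 probes lay between −0.00382 and 0.00399. The 7 SULT genes include Sult1b1 and Sult2b1, which were at or near background. Over the 4 SULT genes above background on every array the median was 0.63 in Rapa+DR, 0.46 in DR and 0.24 in Rapa mice. Over the 9 such UGT genes it was 0.60, 0.23 and 0.35. Over the 9 SULT probes, dim ones included, it was −0.02 in Rapa+DR, −0.01 in DR and 0.01 in Rapa mice. Of the 10 UGT genes 6 were higher and none lower in Rapa+DR mice, 5 and none in DR mice, and 3 and none in Rapa mice. Of the 7 SULT genes 4 were higher and 1 lower both in Rapa+DR and in DR mice, and 2 were higher in Rapa mice. Of all probes 17.3% were higher and 9.71% lower in Rapa+DR, 10.7% and 6.32% in DR, and 8.44% and 5.72% in Rapa mice. Of the probes above background on every array 45.4%, 31.1% and 26.1% were called in the same 3 groups. Among genes above background on every array, 3 of 9 UGT (33.3%) and 2 of 4 SULT genes (50%) were called in Rapa mice. The UGT share was near the last value, and the SULT share rests on 4 genes. Over all genes tested, the shares in Rapa mice were 30% of UGT and 28.6% of SULT genes, beside 14.2% of all probes tested. The mean of the 9 UGT genes above background on every array, relative to AL, was 0.38 ± 0.14 in Rapa+DR, 0.16 ± 0.19 in DR and 0.32 ± 0.16 in Rapa mice (SD over mice), and AL mice had an SD of 0.31. For the 4 such SULT genes it was 0.47 ± 0.19 in Rapa+DR, 0.26 ± 0.15 in DR and 0.25 ± 0.19 in Rapa mice, with an SD of 0.24 in AL mice.

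**Figure D5:**
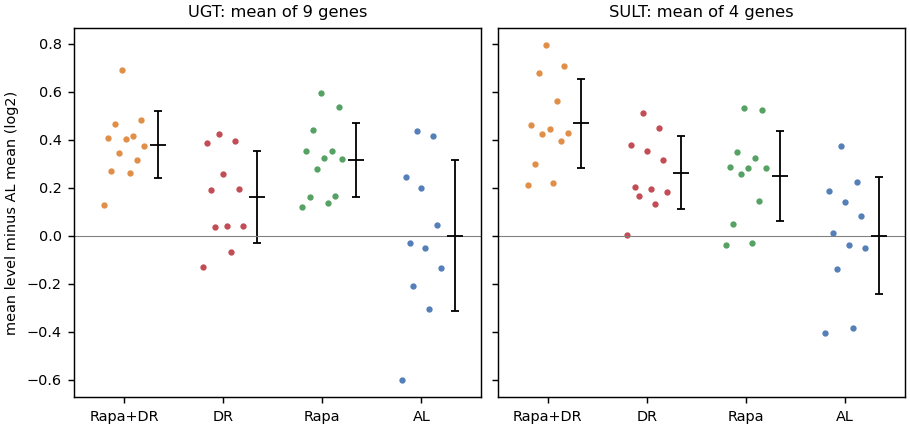
Mean level of the 9 UGT and 4 SULT genes above background on every array, minus the mean of AL mice (y axis, log2), in each mouse (dots) by diet group (x axis), with the mean and SD. Both class means are highest in Rapa+DR mice (0.38 and 0.47), and all groups overlap with AL.

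Among the treated groups, Rapa+DR and DR mice differed in 2 probes, Sult1d1 and Ugt2b1, both higher in Rapa+DR (2.16% of all probes called, 1.82% higher and 0.336% lower). Between Rapa+DR and Rapa mice 7 probes were higher and 4 lower in Rapa+DR (17.2%, 11.3% higher and 5.83% lower), and between DR and Rapa mice 2 were higher and 4 lower in DR (10.9%, 6.62% higher and 4.29% lower). The interaction was called by limma for none of the 22 probes (2.49% of all probes, 1.30% higher and 1.19% lower), and 3 of them, Ugt1a10, Ugt2b35 and Ugt2b1, had an unadjusted p under 0.05. The methods' pairwise comparison without eBayes also called none, and limma with array weights called 3, Ugt1a10 (−0.94), Ugt2b35 (−0.65) and Ugt3a2 (−0.48).

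The other genes of conjugation were read against the share of all probes called higher and lower than in AL, which was 17.3% and 9.71% in Rapa+DR, 10.7% and 6.32% in DR and 8.44% and 5.72% in Rapa mice. Of 3 genes of UDP-glucuronic acid supply tested, 1 was called, and the median change of the list was −0.09 in Rapa+DR, −0.13 in DR and 0.11 in Rapa mice. Ugdh, which makes UDP-glucuronic acid, was above background on no array. Ugp2, which makes UDP-glucose, the precursor of UDP-glucuronic acid, was higher in Rapa+DR (0.45 ± 0.12, adjusted p = 0.0031) and DR mice (0.50 ± 0.13, adjusted p = 0.00263) than in AL mice. Of 8 genes of PAPS supply and sulfate handling, 3 were higher and 1 lower both in Rapa+DR and in DR mice, and 4 were higher in Rapa mice, with a median change of 0.14 in Rapa+DR, 0.07 in DR and 0.28 in Rapa mice. The 2 PAPS synthases differed, since Papss2 was higher in Rapa+DR (0.67 ± 0.10) and DR mice (0.31 ± 0.11) and Papss1 in Rapa mice (0.58 ± 0.10), where Papss2 changed by 0.19 ± 0.10 (adjusted p = 0.225). Slc35b3, a PAPS transporter of the Golgi, was higher by 0.44 ± 0.07 in Rapa+DR, 0.47 ± 0.07 in DR and 0.40 ± 0.07 in Rapa mice, and Tpst1, which sulfates tyrosines of proteins, by 0.44 ± 0.08, 0.24 ± 0.08 and 0.44 ± 0.08 in the same 3 groups.

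On the side of removal, Gusb, the lysosomal beta-glucuronidase, was lower in DR (−0.25 ± 0.09, adjusted p = 0.0414) and Rapa mice (−0.35 ± 0.09, adjusted p = 0.00327) than in AL mice and was not called in Rapa+DR mice (−0.09 ± 0.09). Arsa, a lysosomal sulfatase, was lower in Rapa mice (−0.39 ± 0.12). Of 6 transporters tested, 3 were higher in Rapa+DR, 3 in DR and 1 in Rapa mice. Slco1b2, an uptake carrier of conjugates and bilirubin, was higher by 1.68 ± 0.25 in Rapa+DR, 0.94 ± 0.26 in DR and 1.30 ± 0.25 in Rapa mice. Slco1a4, another uptake carrier, was higher by 1.09 ± 0.10 in Rapa+DR and 0.82 ± 0.10 in DR mice, and Abcc2, which exports conjugates into bile, by 0.53 ± 0.12 and 0.45 ± 0.13.

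Of 12 transcription factors tested, 3 were higher and 1 lower in Rapa+DR, 4 and 1 in DR, and 2 and 2 in Rapa mice, with a median change of 0.14 in Rapa+DR, 0.12 in DR and −0.01 in Rapa mice. In Rapa+DR mice these counts were near the shares of all probes. The xenobiotic receptors Nr1i2 (PXR) and Nr1i3 (CAR) were higher in Rapa+DR (0.63 ± 0.09 and 0.46 ± 0.11) and in DR mice (0.36 ± 0.09 and 0.66 ± 0.11), and changed by −0.19 ± 0.09 and −0.23 ± 0.11 in Rapa mice without being called. Rora was higher on all 3 diets, by 0.89 ± 0.16 in Rapa+DR, 0.56 ± 0.16 in DR and 0.75 ± 0.16 in Rapa mice, and Nr1h3, the liver X receptor, was lower (−0.68 ± 0.08, −0.43 ± 0.08 and −0.25 ± 0.08). Classical targets of PXR, CAR, the aryl hydrocarbon receptor and the antioxidant response were listed together and did not move one way. Of 9 tested, 4 were higher and 1 lower in Rapa+DR, 2 and 2 in DR, and 1 and 2 in Rapa mice. Cyp1a1, Cyp1b1 and Tiparp, targets of the aryl hydrocarbon receptor, and Abcb1a were above background on no array and not tested. The same holds for Ahr, the gene of that receptor. Cyp3a11, a PXR target, was higher in Rapa+DR (0.95 ± 0.28), DR (0.97 ± 0.29) and Rapa mice (0.88 ± 0.28). Cyp2b10, a CAR target, was lower in DR (−0.58 ± 0.21) and Rapa mice (−1.16 ± 0.21), and Gsta1 was higher in Rapa+DR (0.97 ± 0.21) and DR mice (0.71 ± 0.21). Srxn1, an antioxidant gene, was lower in Rapa+DR (−0.60 ± 0.10) and DR mice (−0.27 ± 0.10).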

How the data were processed

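The authors extracted liver RNA of 46 mice, hybridized it to Illumina Mouse Ref8 v2.0 arrays, read the arrays with Genome Studio, took log2 and z-normalized each array. The deposited values are thus z-scores, a score with mean 0 and SD 1 over the 25697 probes of an array. A further 92 deposited columns, whose names match no mouse, were not used. Because scanner signals have 1 decimal, the SD of the log2 signals of each array was recovered from its z-scores (100% of signals whole, within 0.05 of a step of 0.1). Levels are the z-scores times the mean of these SDs (1.34) plus the mean level (7.05). Since background was left in, dim probes show less than their full change. A probe was tested if, on at least 1 array, it exceeded the background limit of that array (upper tail of 0.02).

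Tests used limma 3.58.1 under R 4.3.3 (lmFit and eBayes, 1 mean per group), with Benjamini-Hochberg adjustment over all 14881 probes. The steps were tested on simulated data. Every member gene is accounted for. From each list up to 4 called genes with the largest change against AL are named. The members and lists were chosen with earlier results of these data known. A gene stands by its probe with the highest mean. Relations over mice used 100000 permutations within groups. Replicates are separate mice, and precision rests on their number. Alternatives covered normalization, background, filters, weights, covariates, test, samples in the fit, the replicate block and each array left out. Symbols are those of the platform annotation, and 1719 probes have none. Whether a probe also reads a close relative was not tested.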

Additional observations from a re-analysis of the deposited data

How the results depend on the processing

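Of 1658 changes of single probes under 11 alternatives, 1563 kept their direction or stayed uncalled, 35 lost their call, 54 gained one and 6 reversed. The 6 reversals all came from centring the arrays without dividing by their SD. Ugt2b36 probe 1 was then higher by 0.43 in Rapa+DR against AL, 0.39 in DR against AL and 0.34 in Rapa+DR against Rapa, Ugt2b36 probe 2 by 0.52 in Rapa+DR against AL and 0.32 in Rapa+DR against Rapa, and Ugt3a2 by 0.19 in Rapa+DR against Rapa, where it was not called. That setting also turned the split of DR against Rapa from 2 higher and 4 lower to 4 higher and 1 lower, that of Rapa+DR against Rapa from 7 and 4 to 11 and 2, gave 1 call in Rapa+DR against DR, and moved the median of the SULT genes in Rapa+DR against Rapa to 0.51. The cause was not tested. The number of probes called in Rapa against AL was 11 (10 higher, 1 lower) and in Rapa+DR against DR 4 after quantile normalization, with or without normexp. The interaction was called for 1 probe in both of these fits and with the array SD as a covariate, and for 3 probes with array weights.

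Leaving out 1 array, chosen as an alternative after seeing the data, gave 14 to 15 calls in Rapa+DR against AL, 9 to 13 in DR against AL, 6 to 11 in Rapa against AL, 1 to 3 in Rapa+DR against DR, 9 to 13 in Rapa+DR against Rapa, 6 to 7 in DR against Rapa and 0 to 1 for the interaction. AL replicate 3 gave the highest count in Rapa against AL (11), and the interaction reached 1 without AL replicate 3, AL replicate 7 or Rapa+DR replicate 8. Rapa+DR against DR had 1 call without DR replicate 7, 9, 10 or 11.

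With the replicate number as a block, Rapa+DR against DR had 1 call, since Ugt2b1 lost it, and Sult5a1 gained one in Rapa against AL. No other call changed under the block. The numbers did not pair the mice, as 25 of 67 same-numbered pairs had a correlation over 0.1 (median 0.04) and 6 mice correlated best with their own number.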

Other observations

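Genes whose level differs between the sexes in mouse liver were listed as well, since several conjugating enzymes do too. Of 13 male-biased genes tested, 13 were lower in Rapa+DR and 8 in DR mice when compared with AL (limma adjusted p under 0.05 and medians apart by over 15%), while 9.71% of all probes were lower in Rapa+DR and 6.32% in DR mice, and the median change of the list was −1.19 in Rapa+DR, −0.73 in DR and 0.12 in Rapa mice. Serpina12 was lower by a log2 change of −2.11 ± 0.30 in Rapa+DR and −2.08 ± 0.30 in DR mice (SE), Elovl3, an enzyme of fatty acid elongation, by −2.12 ± 0.26 and −1.85 ± 0.27, and Selenbp2 by −1.53 ± 0.31 and −1.81 ± 0.31. Hsd3b5, a steroid dehydrogenase, changed by −1.49 ± 0.30 in Rapa+DR and by −0.78 ± 0.30 in DR mice (limma adjusted p = 0.0607). The mean level of the list per mouse had a median of 10.61 in Rapa+DR, 10.98 in DR, 11.83 in Rapa and 11.84 in AL mice. Of 9 female-biased genes tested, whose median change was −0.02 in Rapa+DR, 0.02 in DR and −0.04 in Rapa mice, 2 were higher in Rapa+DR and the same number in DR mice, beside 17.3% of all probes called higher in Rapa+DR and 10.7% in DR mice. They were Acot3, an acyl-CoA thioesterase (2.31 ± 0.30 in Rapa+DR and 2.41 ± 0.30 in DR mice), and Cyp2b9 (1.68 ± 0.41 and 1.38 ± 0.41), which changed by −0.10 ± 0.30 and −0.41 ± 0.41 in Rapa mice without being called.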
